A study of Mus musculus with 9 samples.

Results

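The transcripts of 38 genes of platelet granules and platelet signalling were followed in L8057, a mouse megakaryocytic cell line, with core binding factor beta or Ring1b knocked down. The 38 genes are a list drawn up by known function, with earlier results of these data known. Each was read from 1 probe set, that of the highest mean signal. Of them 36 were measured, out of 18193 genes in all, and Cd63 and Ptgs1 were not analysed here. The list holds 9 granule cargo genes, 7 of granule membrane and surface proteins, 4 of granule assembly and loading, 4 eicosanoid enzymes, 11 genes of receptor signalling, and 3 of platelet formation or other roles.

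The groups were CBFb_KD (shRNA-mediated knockdown of CBFb), Ring1b_KD (shRNA-mediated knockdown of Ring1b) and Control (cells given an empty vector, with no hairpin), with 3 arrays each. All 3 groups were infected with lentivirus and, 48 h later, put on puromycin together with 50 nM TPA, a phorbol ester that drives these cells towards maturation. RNA was taken 72 h after that, with TPA given for 3 days in every group, and cells without TPA were not analysed here. The submitters call the triplicates biological, but no label says that each came from its own infection, and the p-values speak only for the spread between these arrays. CBFb is the partner that stabilises RUNX proteins on DNA, and Ring1b, encoded by Rnf2, is a ubiquitin ligase of Polycomb repressive complex 1. The study's design sets each knockdown against the empty vector.

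Platelets are shed by megakaryocytes, which make most of their contents beforehand. Alpha granules carry adhesive proteins, chemokines and growth factors, dense granules carry serotonin and nucleotides, and both are released when the platelet is activated. Collagen and related receptors signal through Syk, the adaptors Lat and SLP-76 (Lcp2), Btk, Vav1 and phospholipase C gamma 2, which raises calcium, activates the exchange factor Rasgrp2 and switches on integrins through talin and kindlin-3 (Fermt3). Activated platelets also release arachidonic acid, which cyclooxygenase and thromboxane synthase turn into thromboxane A2, an agonist that acts back on platelets.

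The signal of each hairpin's own target was lower than in Control. Cbfb averaged 9.19 ± 0.11 in CBFb_KD and 12.36 ± 0.12 in Control (log2 signal, SD, n = 3 each), a 9.02-fold difference. Rnf2 averaged 8.98 ± 0.08 in Ring1b_KD and 10.65 ± 0.08 in Control, a 3.17-fold difference. Array 3 of Ring1b_KD was the lowest of its group for 23 of the 36 measured members, where it was the lowest for 36.9% of all genes. Array 3 of Control and array 1 of CBFb_KD were the lowest of their groups for 19 members each, against 30.8% and 29.8% of all genes. For 13 of the 36 members the highest group mean lay under the median gene (7.418, log2 signal), so these are dim on the array, and detection calls were not analysed here.

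With CBFb knocked down, 14 of the 36 measured members rose and 0 fell. At the same threshold, a limma p under 0.05 after Benjamini-Hochberg adjustment over all 18193 genes, 7.78% of all genes rose and 7.6% fell. The members were chosen with earlier results of these data known, so these shares describe the list and do not test an excess. The median log2 difference, the mean log2 signal of the first group minus that of the second, was 0.25 over the members and -0.01 over all genes. At an unadjusted p under 0.05 limma gave 18 of the 36 members and 25.2% of all genes. The largest changes were of Ppbp (3.08-fold higher), the platelet chemokine precursor, and Lcp2 (2.77-fold higher), the SLP-76 adaptor. The count of members that rose was 9 without Control array 3, and 10 or more without any other single array.

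With Ring1b knocked down, 3 measured members rose (Srgn, Cd82 and Rgs18) and 5 fell (Ltbp1, Tgfb1, Cd226, Vav1 and Ptprj). Over all genes 5.66% rose and 6.57% fell, and of all genes called 46.2% were higher, against 34% with the values as deposited and 12.2% with arrays centred on their medians. The share of members that rose lies near that of all genes. At an unadjusted p under 0.05 limma gave 12 of the 36 members and 26.9% of all genes. The median log2 difference was 0.03 over the members and 0.01 over all genes. The counts depended on single arrays. Without Ring1b_KD array 2 or without Control array 3 the count that rose was 0, without Ring1b_KD array 1 it was 1, and without Ring1b_KD array 3 it was 5. The count that fell was 2 without Ring1b_KD array 3, Control array 1 or Control array 2, and 3 without Ring1b_KD array 1 or Control array 3.

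Both knockdowns were set against the same Control arrays. Of the members, 2 rose in both (Srgn and Rgs18), 2 rose in CBFb_KD and fell in Ring1b_KD (Ltbp1 and Ptprj), 10 rose in CBFb_KD with no call in Ring1b_KD, and 18 had no call in either. The direct comparison of the knockdowns tests such differences. In it 11 members were higher in CBFb_KD than in Ring1b_KD and 1 was lower, while 10.1% of all genes were higher and 9.31% lower. At an unadjusted p under 0.05 limma gave 21 of the 36 members and 31.7% of all genes. The members called higher were Ppbp, Ltbp1, Pdgfb, Tgfb1, Cd36, Cd151, Lcp2, Btk, Vav1, Lat and Ptprj, and the member called lower was Cd82. Of all genes called 52.1% were higher in CBFb_KD, against 62.3% as deposited and 84.1% with median centring. With probe sets averaged per gene the calls of Tgfb1 (limma adjusted p = 0.0996), Cd151 (0.0881) and Cd82 (0.417) were lost, and with median centring that of Cd82 (0.143).

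**Figure D1:**
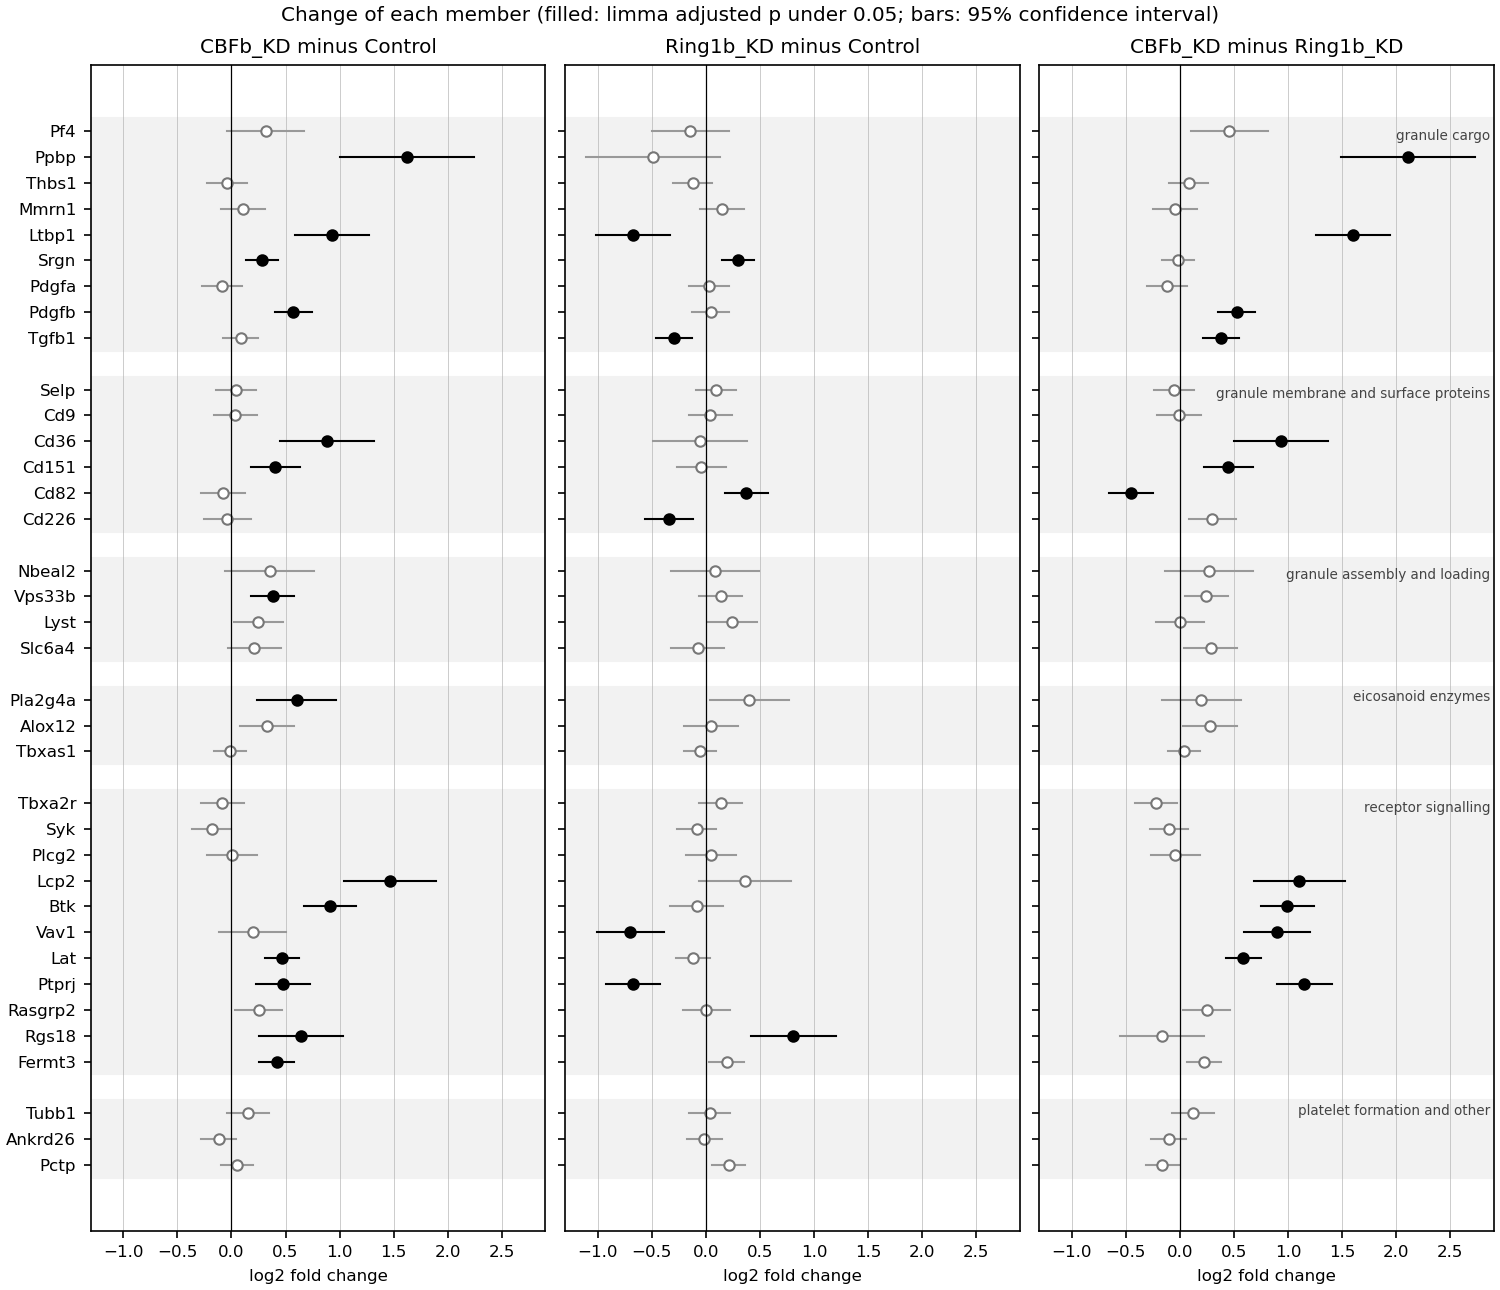
Log2 fold change of each of the 36 measured members, by role from top to bottom, in CBFb_KD minus Control, Ring1b_KD minus Control and CBFb_KD minus Ring1b_KD. Points are limma estimates over 3 arrays per group, bars are 95% confidence intervals, and filled points passed an adjusted p of 0.05. The 14 filled points of the left panel all lie right of 0, while the middle panel has 3 right and 5 left of 0.

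Among the 9 granule cargo genes, 4 rose and 0 fell in CBFb_KD (median log2 difference 0.28, and 4 at an unadjusted p under 0.05 in limma), and 1 rose and 2 fell in Ring1b_KD (median -0.12). For this and the other roles, the shares of all genes were 7.78% higher and 7.6% lower in CBFb_KD, and 5.66% and 6.57% in Ring1b_KD. At an unadjusted p under 0.05 limma gave 25.2% of all genes in CBFb_KD and 26.9% in Ring1b_KD. Ppbp encodes the precursor of the platelet chemokine CXCL7. Its log2 signal was 8.73, 7.80 and 8.77 on the CBFb_KD arrays and 6.48, 6.86 and 5.63 on the Ring1b_KD arrays, against 7.03, 6.82 and 6.59 on the Control arrays. All CBFb_KD arrays lay above all others, and array 3 of Ring1b_KD was the lowest of the 9. Ppbp was 3.08-fold higher in CBFb_KD than in Control (log2 difference 1.62, SE 0.286; limma adjusted p = 0.00181) and 4.32-fold higher than in Ring1b_KD (log2 difference 2.11, SE 0.286; limma adjusted p = 0.000251). Its log2 difference in Ring1b_KD against Control was -0.49 (95% confidence interval -1.11 to 0.13, limma adjusted p = 0.304), and those groups overlapped.

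Pf4, platelet factor 4, is the neighbour of Ppbp in the chemokine cluster of chromosome 5, with 2371 bases between the genes on GRCm38.p6. Its log2 signal was 14.77, 14.67 and 14.75 on the CBFb_KD arrays and 14.40, 14.67 and 13.76 on the Ring1b_KD arrays. On the Control arrays it was 14.57, 14.40 and 14.28. These values lie near the top of the scale, which ends at 15.36 on these arrays. Differences can be compressed there, which was not tested. The CBFb_KD arrays lay above all Control arrays, but Pf4 did not pass the test (log2 difference 0.32, SE 0.164; limma adjusted p = 0.266). It passed without Ring1b_KD array 3 (limma adjusted p = 0.0187) and in a fit of only the CBFb_KD and Control arrays (0.0134). The promoters of this pair are shown because the genes sit side by side and differ in call. They are RefSeq windows of GRCm38.p6, from 250 bases before the start site to 50 bases from it on, 5′ to 3′ along the gene. Letters are in capitals where 1 of 5 motifs matched on either strand: TGTGGT and TGCGGT, which core binding factor can bind, TGATAA and AGATAA, which GATA factors can bind, and CCGGAA, of ETS factors. The Pf4 window (chr5:90772185-90772484, plus strand) holds CCGGAA, here read as its reverse complement, and AGATAA, both after the start site, and the Ppbp window (chr5:90768268-90768567, plus strand) holds none of the 5.
Pf4: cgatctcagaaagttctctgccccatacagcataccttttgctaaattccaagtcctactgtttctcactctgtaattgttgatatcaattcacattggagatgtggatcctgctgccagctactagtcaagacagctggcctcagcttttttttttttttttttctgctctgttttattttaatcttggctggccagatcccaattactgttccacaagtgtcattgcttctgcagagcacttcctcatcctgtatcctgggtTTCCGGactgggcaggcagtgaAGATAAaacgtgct
Ppbp: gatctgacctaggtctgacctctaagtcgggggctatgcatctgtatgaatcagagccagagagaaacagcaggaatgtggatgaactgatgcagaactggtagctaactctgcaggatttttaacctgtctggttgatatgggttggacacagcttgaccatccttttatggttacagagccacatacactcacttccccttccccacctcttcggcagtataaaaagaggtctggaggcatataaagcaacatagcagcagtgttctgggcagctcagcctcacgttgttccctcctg

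Ltbp1 encodes a protein that anchors latent TGF-beta to the extracellular matrix. Its log2 signal was 10.49, 11.02 and 10.78 on the CBFb_KD arrays and 9.02, 9.54 and 8.93 on the Ring1b_KD arrays, against 9.86, 9.94 and 9.70 on the Control arrays. The 3 groups did not overlap, with CBFb_KD highest and Ring1b_KD lowest. Ltbp1 rose 1.9-fold in CBFb_KD (log2 difference 0.93, SE 0.158; limma adjusted p = 0.00143) and fell 1.59-fold in Ring1b_KD (log2 difference -0.67, SE 0.158; limma adjusted p = 0.0156), and it was 3.03-fold higher in CBFb_KD than in Ring1b_KD (limma adjusted p = 2.52e-05). The call in Ring1b_KD was lost without Ring1b_KD array 1 (limma adjusted p = 0.0621) or 3 (0.0519) and without Control array 1 (0.0504) or 2 (0.0682). Ltbp1 has a pair of promoter windows here, which need not cover all its start sites. The downstream one (chr17:75178531-75178830, plus strand) holds TGTGGT at 2 places, 71 and 33 bases before its start site. Only this window of Ltbp1 is shown, and the upstream one holds CCGGAA but neither TGTGGT nor TGCGGT. Ltbp1 was called in all 3 comparisons, as was Ptprj, whose windows are not shown.
Ltbp1: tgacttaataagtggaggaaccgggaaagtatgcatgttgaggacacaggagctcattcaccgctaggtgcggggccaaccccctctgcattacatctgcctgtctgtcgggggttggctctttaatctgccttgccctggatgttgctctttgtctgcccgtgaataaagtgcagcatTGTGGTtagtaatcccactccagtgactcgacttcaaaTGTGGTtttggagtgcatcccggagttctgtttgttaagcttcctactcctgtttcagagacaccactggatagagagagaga

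Pdgfb encodes the B chain of platelet-derived growth factor. Its log2 signal was 7.29, 7.37 and 7.33 on the CBFb_KD arrays and 6.88, 6.86 and 6.68 on the Ring1b_KD arrays, against 6.82, 6.69 and 6.78 on the Control arrays, and every CBFb_KD array lay above all 6 others. It rose in CBFb_KD (log2 difference 0.57, SE 0.0788; limma adjusted p = 0.000365), although its level lay under the median gene in every group. Its partner chain Pdgfa had log2 differences of -0.09 in CBFb_KD and 0.03 in Ring1b_KD and was not called. Srgn, serglycin, the proteoglycan that packs granule contents, rose in both CBFb_KD (log2 difference 0.28, SE 0.0688; limma adjusted p = 0.0142) and Ring1b_KD (log2 difference 0.30, SE 0.0688; limma adjusted p = 0.0137). It averaged 14.04 ± 0.06 in CBFb_KD and 14.06 ± 0.12 in Ring1b_KD, against 13.76 ± 0.09 in Control (SD, n = 3 each), again near the top of the scale. The call in CBFb_KD was lost without CBFb_KD array 3 (limma adjusted p = 0.0608) or Control array 3 (0.0822), and that in Ring1b_KD without Ring1b_KD array 1 (0.0502) or 2 (0.0516) or Control array 3 (0.0727), and with median centring (0.12).

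Tgfb1, the cytokine that platelets store in latent form, fell in Ring1b_KD (log2 difference -0.29, SE 0.0762; limma adjusted p = 0.0246) and had a log2 difference of 0.08 in CBFb_KD (limma adjusted p = 0.584). It averaged 14.21 ± 0.13 in CBFb_KD and 13.84 ± 0.14 in Ring1b_KD, against 14.13 ± 0.04 in Control. Its call in Ring1b_KD was lost when any of 5 single arrays was left out, with limma adjusted p of 0.0569 and 0.0759 without Ring1b_KD array 1 or 3 and of 0.0561, 0.0681 and 0.0983 without Control array 1, 2 or 3. Thbs1, thrombospondin 1, and Mmrn1, multimerin 1, had low log2 signals of between 5.76 and 6.24 on all arrays and no call. Their log2 differences were -0.04 and 0.11 in CBFb_KD and -0.12 and 0.15 in Ring1b_KD.

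**Figure D2:**
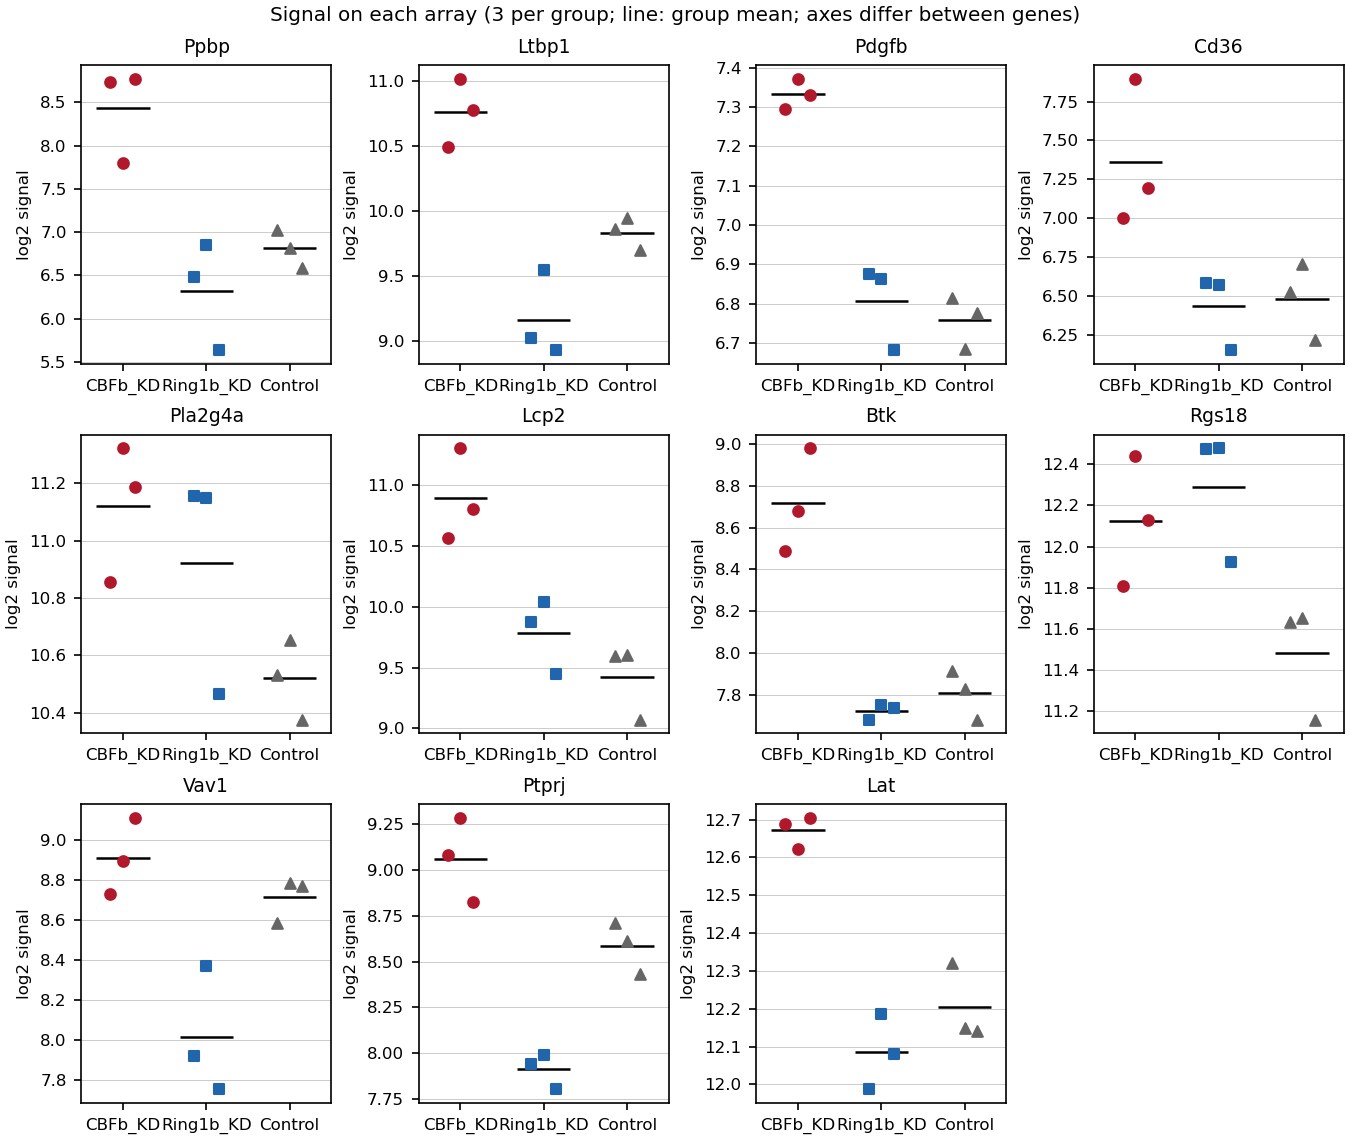
Log2 signal on each array for the 11 members called in any comparison with a log2 difference of at least 0.5 in size. Points are single arrays (3 per group: CBFb_KD left, Ring1b_KD middle, Control right), lines are group means, and each gene has its own vertical axis. For Ppbp, Ltbp1, Pdgfb, Cd36, Lcp2, Btk, Lat and Ptprj all CBFb_KD arrays lie above all others. For Ltbp1, Vav1 and Ptprj all Ring1b_KD arrays lie below all others.

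Of the 7 granule membrane and surface genes 6 were measured. In CBFb_KD 2 rose and 0 fell (median log2 difference 0.04, and 2 at an unadjusted p under 0.05 in limma), and in Ring1b_KD 1 rose and 1 fell (median 0.00). Cd36, a receptor for thrombospondin and oxidised lipids, had a log2 signal of 7.0, 7.90 and 7.20 on the CBFb_KD arrays and 6.58, 6.57 and 6.15 on the Ring1b_KD arrays, against 6.52, 6.71 and 6.22 on the Control arrays. Every CBFb_KD array lay above all 6 others, and CBFb_KD array 2 stood highest. Cd36 rose 1.84-fold in CBFb_KD (log2 difference 0.88, SE 0.2; limma adjusted p = 0.00895) and had a log2 difference of -0.05 in Ring1b_KD (95% confidence interval -0.48 to 0.38). Its mean level lay under the median gene in every group. Cd151, a tetraspanin that associates with integrins, rose in CBFb_KD (log2 difference 0.41, SE 0.104; limma adjusted p = 0.0175). It averaged 9.29 ± 0.15 in CBFb_KD and 8.85 ± 0.19 in Ring1b_KD, against 8.89 ± 0.04 in Control. This call was lost without CBFb_KD array 1 (limma adjusted p = 0.0561) or 3 (0.0765) or Control array 1 (0.0619) or 2 (0.0635).

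Cd82, another tetraspanin, rose in Ring1b_KD (log2 difference 0.38, SE 0.0933; limma adjusted p = 0.0201) and had a log2 difference of -0.08 in CBFb_KD (limma adjusted p = 0.694). It averaged 9.40 ± 0.16 in CBFb_KD and 9.86 ± 0.11 in Ring1b_KD, against 9.48 ± 0.06 in Control. The call in Ring1b_KD was lost with the values as deposited (0.27, limma adjusted p = 0.0909) or median centring (0.306) and without Ring1b_KD array 2 (0.0757) or Control array 2 (0.0632) or 3 (0.0844), and its probe sets disagreed, as given with the other probe sets. Cd226, an adhesion receptor, fell in Ring1b_KD (log2 difference -0.34, SE 0.101; limma adjusted p = 0.0463) with a dim signal that averaged 4.24 ± 0.18 in Ring1b_KD and 4.58 ± 0.13 in Control. Its call was lost in 10 of the 16 alternatives in which it was tested, among them each fit without Ring1b_KD array 2 (limma adjusted p = 0.131) or 3 (0.141), CBFb_KD array 3 (0.0612), or Control array 1 (0.154), 2 (0.106) or 3 (0.0597). Selp, P-selectin, and Cd9, a tetraspanin of the platelet surface, had log2 differences of 0.04 and 0.03 in CBFb_KD and 0.10 and 0.04 in Ring1b_KD, with groups that overlapped.

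Among the 4 genes of granule assembly and loading, 1 rose in CBFb_KD (2 at an unadjusted p under 0.05 in limma) and 0 were called in Ring1b_KD (1 at an unadjusted p under 0.05, a share near the 26.9% of all genes). Their median log2 difference was 0.30 in CBFb_KD and 0.11 in Ring1b_KD. Vps33b, a vesicle-trafficking protein needed for alpha granules, averaged 8.99 ± 0.07 in CBFb_KD and 8.61 ± 0.05 in Control and rose in CBFb_KD (log2 difference 0.38, SE 0.0924; limma adjusted p = 0.0134). The call was lost without CBFb_KD array 2 (limma adjusted p = 0.061) or Control array 3 (0.0633). Nbeal2, whose loss in humans causes the gray platelet syndrome, had a log2 difference of 0.35 in CBFb_KD (limma adjusted p = 0.286). Array 1 of CBFb_KD was low for this gene, at 7.85, against 8.56 and 8.68 on the others, and without it Nbeal2 was called (0.61, limma adjusted p = 0.0137). Lyst, the lysosomal trafficking regulator that is mutated in Chediak-Higashi syndrome, had log2 differences of 0.25 in CBFb_KD and 0.25 in Ring1b_KD and was called in CBFb_KD without its array 1 (0.37, limma adjusted p = 0.0114). Slc6a4, the transporter that loads platelets with serotonin, had 0.21 and -0.08 and no call.

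Of the 4 eicosanoid enzymes 3 were measured. In CBFb_KD 1 rose and 0 fell, with 2 at an unadjusted p under 0.05 in limma, and in Ring1b_KD 0 were called, with 1 at an unadjusted p under 0.05. Over all genes 25.2% had such a p in CBFb_KD and 26.9% in Ring1b_KD. Pla2g4a encodes the cytosolic phospholipase A2 that frees arachidonic acid. Its log2 signal was 10.86, 11.32 and 11.19 on the CBFb_KD arrays and 11.15, 11.15 and 10.47 on the Ring1b_KD arrays, against 10.53, 10.65 and 10.38 on the Control arrays. The CBFb_KD arrays lay above all Control arrays, while Ring1b_KD had 2 arrays at the CBFb_KD level and array 3 within the Control range. Pla2g4a rose in CBFb_KD (log2 difference 0.60, SE 0.168; limma adjusted p = 0.0282) and had a log2 difference of 0.40 in Ring1b_KD (limma adjusted p = 0.145). Without Ring1b_KD array 3 it was called in Ring1b_KD too (0.63, limma adjusted p = 0.00794). The call in CBFb_KD was lost with the values as deposited (0.59, limma adjusted p = 0.0516) or median centring (0.0711), and without CBFb_KD array 2 (0.119) or 3 (0.0898) or Control array 1 (0.0733) or 3 (0.114).

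Alox12, the platelet 12-lipoxygenase, had a log2 difference of 0.32 in CBFb_KD (SE 0.115, limma adjusted p = 0.0808), and it passed with the replicate number as a block (limma adjusted p = 0.0439). It averaged 6.34 ± 0.19 in CBFb_KD and 6.02 ± 0.13 in Control, both under the median gene. Tbxas1, thromboxane A synthase, stood within 7.36 and 7.48 on all 9 arrays, with log2 differences of -0.01 in CBFb_KD (95% confidence interval -0.16 to 0.14) and -0.05 in Ring1b_KD (95% confidence interval -0.20 to 0.10).

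Of the 11 receptor signalling genes 6 rose and 0 fell in CBFb_KD (median log2 difference 0.42, and 8 at an unadjusted p under 0.05 in limma). In Ring1b_KD 1 rose and 2 fell (median 0.00), and 5 were higher in CBFb_KD than in Ring1b_KD. Of all genes 10.1% were higher in that direct comparison, and 25.2% had an unadjusted p under 0.05 in CBFb_KD against Control. Lcp2 encodes SLP-76, the adaptor that assembles the signalling complex below Syk. Its log2 signal was 10.57, 11.30 and 10.80 on the CBFb_KD arrays and 9.88, 10.04 and 9.45 on the Ring1b_KD arrays, against 9.60, 9.60 and 9.07 on the Control arrays. Every CBFb_KD array lay above all 6 others, and array 3 of Control was the lowest of the 9. Lcp2 rose 2.77-fold in CBFb_KD (log2 difference 1.47, SE 0.196; limma adjusted p = 0.000298), and its log2 difference in Ring1b_KD was 0.36 (95% confidence interval -0.06 to 0.79, limma adjusted p = 0.261). The promoter of Lcp2 (chr11:34046678-34046977, plus strand), shown as that of the signalling gene with the largest change, holds AGATAA on both strands, 138 and 106 bases before the start.
Lcp2: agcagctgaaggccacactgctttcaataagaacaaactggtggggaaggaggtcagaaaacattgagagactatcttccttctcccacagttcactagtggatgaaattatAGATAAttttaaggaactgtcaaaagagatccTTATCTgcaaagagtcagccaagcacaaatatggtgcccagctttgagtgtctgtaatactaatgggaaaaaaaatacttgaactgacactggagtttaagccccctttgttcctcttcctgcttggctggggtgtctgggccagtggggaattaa

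Lat, the membrane adaptor that recruits phospholipase C gamma, had a log2 signal of 12.69, 12.62 and 12.70 on the CBFb_KD arrays and 11.99, 12.19 and 12.08 on the Ring1b_KD arrays, against 12.32, 12.15 and 12.14 on the Control arrays. Every CBFb_KD array lay above all 6 others, with arrays of a group close together. Lat rose in CBFb_KD (log2 difference 0.47, SE 0.0737; limma adjusted p = 0.000877) and had a log2 difference of -0.12 in Ring1b_KD (limma adjusted p = 0.332), where it was called lower with median centring (-0.28, limma adjusted p = 0.0275). Btk, the Tec-family kinase that activates phospholipase C gamma 2, had a log2 signal of 8.49, 8.68 and 8.98 on the CBFb_KD arrays and 7.68, 7.75 and 7.74 on the Ring1b_KD arrays, against 7.91, 7.83 and 7.68 on the Control arrays. Its CBFb_KD arrays again lay above all others, and Btk rose 1.88-fold (log2 difference 0.91, SE 0.113; limma adjusted p = 0.000176). In Ring1b_KD its log2 difference was -0.08 (95% confidence interval -0.33 to 0.16). Fermt3, kindlin-3, which activates integrins together with talin, averaged 13.92 ± 0.05 in CBFb_KD and 13.70 ± 0.14 in Ring1b_KD, against 13.51 ± 0.09 in Control, and rose in CBFb_KD (log2 difference 0.42, SE 0.0739; limma adjusted p = 0.00186). In Ring1b_KD its log2 difference was 0.19 (limma adjusted p = 0.109), and it passed there without Ring1b_KD array 3 (0.27, limma adjusted p = 0.0197) and with probe sets averaged (0.28, limma adjusted p = 0.0221). The windows of Lat (chr7:126369519-126369818, minus strand) and Fermt3 (chr19:7019420-7019719, minus strand) are shown because both hold TGTGGT close to the start site of the window. Lat holds it as its reverse complement from 5 bases before that site, and Fermt3 at 61 and 24 bases before it. By RefSeq's gene bounds the 5′ end of Lat lies further upstream, at base 126369705 of chromosome 7, so the distance for Lat holds only for the start site of this window.
Lat: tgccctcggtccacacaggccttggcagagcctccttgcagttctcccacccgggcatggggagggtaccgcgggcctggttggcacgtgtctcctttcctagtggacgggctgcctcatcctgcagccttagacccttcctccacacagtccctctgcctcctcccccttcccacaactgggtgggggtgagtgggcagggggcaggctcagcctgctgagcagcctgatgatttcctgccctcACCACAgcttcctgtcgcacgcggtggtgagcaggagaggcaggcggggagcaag
Fermt3: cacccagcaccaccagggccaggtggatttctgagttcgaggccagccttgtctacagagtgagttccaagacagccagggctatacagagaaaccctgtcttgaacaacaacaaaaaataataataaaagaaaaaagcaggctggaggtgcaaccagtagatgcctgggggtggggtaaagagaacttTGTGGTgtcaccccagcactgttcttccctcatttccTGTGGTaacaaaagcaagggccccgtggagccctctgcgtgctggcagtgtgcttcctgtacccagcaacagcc

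Vav1, the exchange factor for Rac downstream of Syk, had a log2 signal of 8.73, 8.89 and 9.11 on the CBFb_KD arrays and 7.92, 8.37 and 7.75 on the Ring1b_KD arrays, against 8.58, 8.79 and 8.77 on the Control arrays. All Ring1b_KD arrays lay below all others, while CBFb_KD and Control overlapped. Vav1 fell 1.62-fold in Ring1b_KD (log2 difference -0.70, SE 0.143; limma adjusted p = 0.00734), a call kept in all 17 alternatives, and had a log2 difference of 0.20 in CBFb_KD (limma adjusted p = 0.465). Ptprj, the receptor phosphatase CD148 that sets the activity of Src-family kinases in platelets, had a log2 signal of 9.08, 9.29 and 8.82 on the CBFb_KD arrays and 7.94, 7.99 and 7.80 on the Ring1b_KD arrays, against 8.71, 8.61 and 8.43 on the Control arrays. The 3 groups did not overlap. Ptprj rose in CBFb_KD (log2 difference 0.48, SE 0.116; limma adjusted p = 0.0129) and fell in Ring1b_KD (log2 difference -0.67, SE 0.116; limma adjusted p = 0.00267), and it was 2.22-fold higher in CBFb_KD than in Ring1b_KD (limma adjusted p = 2.75e-05). The call in CBFb_KD was lost without CBFb_KD array 2 (limma adjusted p = 0.0628) or Control array 3 (0.0698).

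Rgs18, a regulator of G-protein signalling found in platelets, had a log2 signal of 11.81, 12.44 and 12.13 on the CBFb_KD arrays and 12.47, 12.48 and 11.92 on the Ring1b_KD arrays, against 11.63, 11.65 and 11.16 on the Control arrays. Both knockdowns lay above all Control arrays and overlapped each other. Rgs18 rose in CBFb_KD (log2 difference 0.64, SE 0.18; limma adjusted p = 0.0282) and in Ring1b_KD (log2 difference 0.81, SE 0.18; limma adjusted p = 0.0117). The call in CBFb_KD was lost without CBFb_KD array 2 (limma adjusted p = 0.126) or 3 (0.0741) or Control array 3 (0.133) and with median centring (0.0645) or robust variance (0.0615), and that in Ring1b_KD without Ring1b_KD array 1 (0.053) or 2 (0.0521) or Control array 3 (0.0544). The kinase Syk (-0.18 in CBFb_KD, -0.08 in Ring1b_KD), phospholipase C gamma 2 (0.00 and 0.05 for Plcg2) and the thromboxane receptor (-0.08 and 0.14 for Tbxa2r) had no call. Rasgrp2, the calcium-responsive exchange factor for Rap1, had 0.25 in CBFb_KD (limma adjusted p = 0.127) and 0.00 in Ring1b_KD.

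Of the 3 remaining genes 0 were called in any comparison, and at an unadjusted p under 0.05 limma gave 0 in CBFb_KD and 1 in Ring1b_KD. It gave 25.2% of all genes in CBFb_KD and 26.9% in Ring1b_KD at that threshold. Tubb1, the beta-tubulin of the platelet marginal band, averaged 6.12 ± 0.15 in CBFb_KD and 6.01 ± 0.05 in Ring1b_KD, against 5.97 ± 0.11 in Control. Ankrd26, mutated in an inherited thrombocytopenia of humans, had log2 differences of -0.12 in CBFb_KD and -0.01 in Ring1b_KD. Pctp, phosphatidylcholine transfer protein, had 0.05 and 0.21 (limma adjusted p = 0.0659 in Ring1b_KD, and 0.0212 with the values as deposited), and its Ring1b_KD arrays lay above all Control arrays.

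Set side by side in CBFb_KD, 4 of 9 cargo genes, 1 of 3 measured eicosanoid enzymes and 6 of 11 receptor signalling genes rose, with median log2 differences of 0.28, 0.32 and 0.42. Over all genes 7.78% rose, with a median of -0.01. In Ring1b_KD the same 3 groups had medians of -0.12, 0.05 and 0.00. The eicosanoid group rests on 3 genes, and no test of a difference between roles was made. Within a role the members were not uniform in either knockdown. Cargo ran in CBFb_KD from -0.09 (Pdgfa) to 1.62 (Ppbp), and receptor signalling from -0.18 (Syk) to 1.47 (Lcp2).

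**Figure D3:**
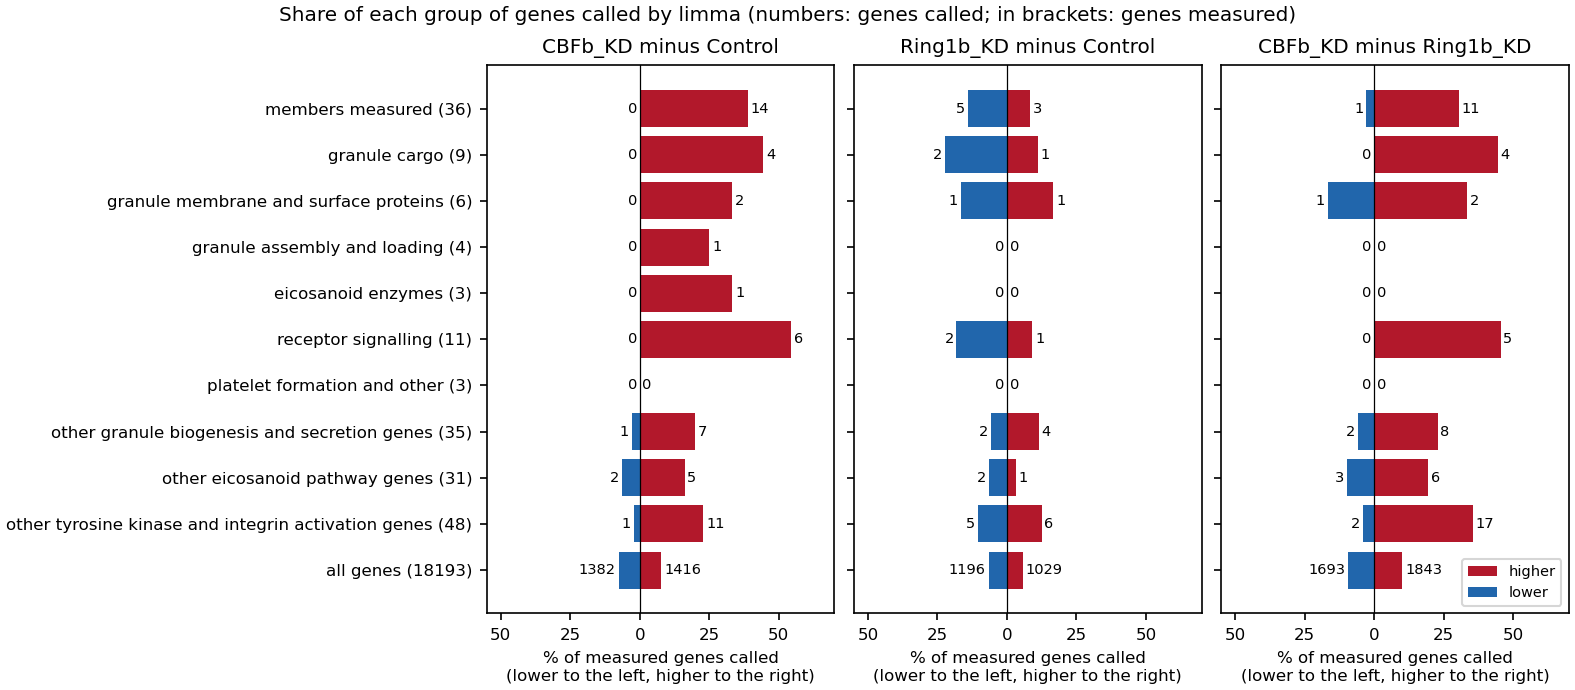
Percent of the measured genes called higher (red, right) or lower (blue, left) by limma, for the members, each role, 3 other pathway lists and all genes, in the 3 comparisons. Numbers at the bars are genes called and numbers in brackets genes measured. In CBFb_KD minus Control 14 of 36 members lie on the right and 0 on the left, and the shares of all genes are 7.78% and 7.6%.

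Other genes of the same pathways were read from 3 lists. Among 35 measured genes of granule biogenesis and secretion, 7 rose and 1 fell in CBFb_KD and 4 rose and 2 fell in Ring1b_KD (medians 0.11 and 0.02). Over all genes 7.78% rose and 7.6% fell in CBFb_KD, and 5.66% rose and 6.57% fell in Ring1b_KD. The shares of the list that fell lay near or under these. Rab27b, a GTPase of dense granule formation and secretion, rose in both CBFb_KD (log2 difference 1.37, SE 0.192; limma adjusted p = 0.000424) and Ring1b_KD (log2 difference 1.16, SE 0.192; limma adjusted p = 0.00231). The priming factor Unc13d rose by 0.69 and the syntaxin Stx11 by 0.48 on the log2 scale in CBFb_KD, and Rab38, which acts in the biogenesis of lysosome-related organelles, fell by 0.86 (limma adjusted p = 1.56e-05). In Ring1b_KD the secretory SNARE Vamp8 rose by 0.30, and Rab27a and Dtnbp1, a BLOC-1 subunit, fell by 0.42 and 0.33. The level of Rab27a lay under the median gene in all groups. Between the knockdowns Rab32, a GTPase of lysosome-related organelles, and Ap3b1, an adaptor subunit mutated in a Hermansky-Pudlak model, were higher in CBFb_KD than in Ring1b_KD (0.71 and 0.42).

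Among 31 measured other genes of the eicosanoid pathway, 5 rose and 2 fell in CBFb_KD, and 1 rose and 2 fell in Ring1b_KD (medians 0.03 and 0.01). Over all genes 7.78% rose and 7.6% fell in CBFb_KD, and 5.66% rose and 6.57% fell in Ring1b_KD. The shares of the list that fell in either knockdown, or rose in Ring1b_KD, lay near or under these. Alox5, 5-lipoxygenase, fell in CBFb_KD (log2 difference -0.87, SE 0.1; limma adjusted p = 0.000107), while Ltc4s, leukotriene C4 synthase, rose by 0.65 and the lysosomal phospholipase Pla2g15 by 0.80. Gpx4, which reduces lipid hydroperoxides, rose in CBFb_KD by 0.66 and in Ring1b_KD by 0.41. Ptger3, a prostaglandin E2 receptor, fell in Ring1b_KD (log2 difference -0.91, SE 0.0838; limma adjusted p = 4.81e-05), as did Daglb, a diacylglycerol lipase (-0.46). The level of Daglb lay under the median gene in all groups. Ptgir, the prostacyclin receptor, was higher in CBFb_KD than in Ring1b_KD (0.92, limma adjusted p = 0.00253).

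Among 48 measured other genes of tyrosine kinase signalling and integrin activation, 11 rose and 1 fell in CBFb_KD, and 6 rose and 5 fell in Ring1b_KD (medians 0.13 and -0.05). Of these, 17 were higher and 2 lower in CBFb_KD than in Ring1b_KD. Over all genes 7.78% rose and 7.6% fell in CBFb_KD, and 5.66% rose and 6.57% fell in Ring1b_KD. Between the knockdowns 10.1% of all genes were higher in CBFb_KD and 9.31% lower. Those that rose in CBFb_KD included negative regulators. Inpp5d, the lipid phosphatase SHIP1, rose 2.23-fold (log2 difference 1.16, SE 0.11; limma adjusted p = 2.87e-05), and Ubash3b, a phosphatase that acts on Syk, rose 2.03-fold (log2 difference 1.02, SE 0.112; limma adjusted p = 7.68e-05). The adaptor Skap2 rose by 0.73 and the Ras exchange factor Sos1 fell by 0.93 on the log2 scale. In Ring1b_KD the small GTPase Rac1 fell 2-fold (log2 difference -1.003, SE 0.0591; limma adjusted p = 8.48e-07), and Rap1a, Ceacam1 and the ubiquitin ligase Cbl rose by 0.45, 0.61 and 0.40. Cblb was higher in CBFb_KD than in Ring1b_KD (0.77).

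Several members have further probe sets, which were tested in a fit over all probe sets. Of 22 members with several, 8 were among the 14 that rose in CBFb_KD. Both probe sets of Lcp2 (1.47 and 1.07), Pdgfb (0.57 and 0.53) and Rgs18 (0.64 and 0.68) rose in CBFb_KD, and those of Rgs18 also in Ring1b_KD (0.81 and 0.91). Of 3 probe sets of Ltbp1, 2 rose in CBFb_KD (0.93 and 1.13) and fell in Ring1b_KD (-0.67 and -0.56), and the other was not called (0.33 and -0.11). Of 3 for Cd36, 2 rose in CBFb_KD (0.88 and 0.98). Of 4 for Fermt3, 3 rose in CBFb_KD, by 0.42 to 0.54, and the other, which was not called there (0.36, limma adjusted p = 0.0821), was the one that rose in Ring1b_KD (0.46, limma adjusted p = 0.0301).

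For other members the chosen probe set and the others differed. The second probe set of Cd82 rose in CBFb_KD (0.84, limma adjusted p = 0.00504), where the chosen one had -0.08, and it was not called in Ring1b_KD (0.09), where the chosen one rose. Members without a call on the chosen probe set had another that rose in CBFb_KD: Rasgrp2 (1.09, limma adjusted p = 0.00033, and 0.45), Nbeal2 (0.64, limma adjusted p = 0.00043) and Lyst (0.58, limma adjusted p = 0.0108). A probe set of Syk fell in CBFb_KD (-0.34, limma adjusted p = 0.0147). In Ring1b_KD the second probe sets of Vav1 (-0.11, limma adjusted p = 0.513) and Tgfb1 (0.22, limma adjusted p = 0.439) were not called. For Ptprj the other 3 probe sets had 0.19, 0.50 and 0.02 in CBFb_KD and -0.16, -0.53 and 0.21 in Ring1b_KD, and 0 of these were called (limma adjusted p of 0.169 to 0.944). With the probe sets averaged, limma adjusted p was 0.0707 in CBFb_KD and 0.091 in Ring1b_KD for Ptprj, and 0.849 in Ring1b_KD for Tgfb1. Of the 6 of Cd151, 3 rose in CBFb_KD, and 1 was lower in CBFb_KD than in Ring1b_KD (-0.36, limma adjusted p = 0.0256), where the chosen one was higher. The location of the probes within the transcripts was not analysed here.

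**Figure D4:**
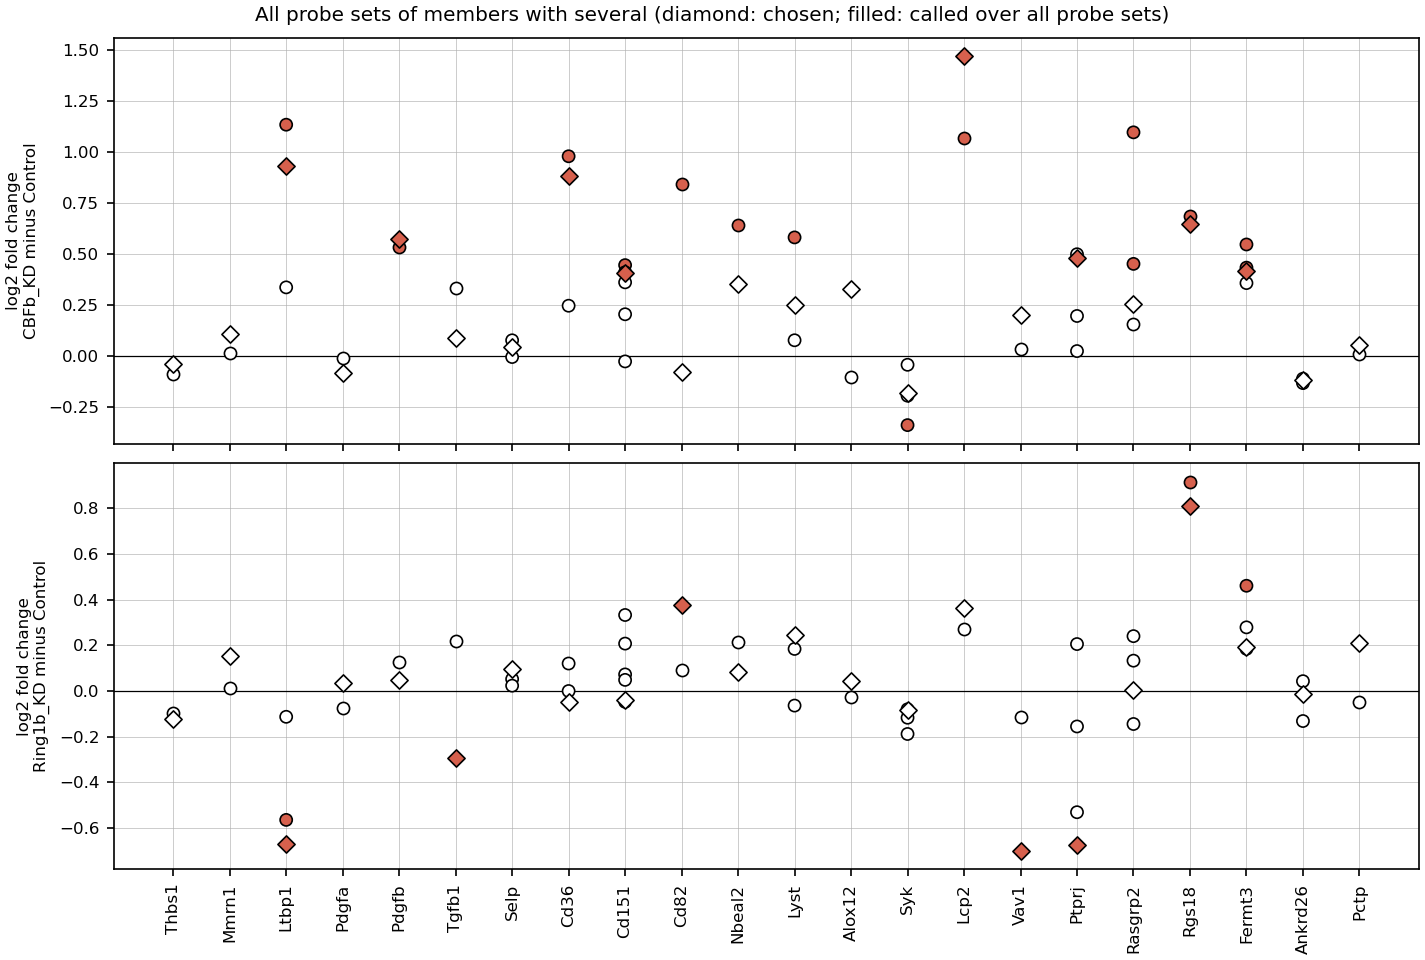
Log2 fold change of every probe set of the 22 members that have several, in CBFb_KD minus Control (top) and Ring1b_KD minus Control (bottom). Diamonds are the chosen probe sets, circles the others, and filled points were called by limma over all probe sets. In the top panel the circles of Cd82, Nbeal2, Lyst and Rasgrp2 that are filled stand above an open diamond.

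Over the promoter windows of 31 measured members, TGTGGT on either strand was present at 5 genes (Cd82, Fermt3, Lat, Ltbp1 and Srgn) and in 6 of 43 windows, while it stands in 16.8% of all 32851 windows. Windows of chromosome 18, where Cd226 lies, were left out of these counts. Among members with a window, by call in CBFb_KD, it was present at 4 of 11 that rose and at 1 of 20 that were not called. It was present at 18.9% of the 27025 genes with a window. TGCGGT was found at Ptprj, Slc6a4 and Syk (3 windows, and 6.45% of all). AGATAA was found at Lcp2, Pctp, Pf4, Plcg2 and Ptprj (5 windows, and 11.2% of all), and TGATAA at 3 members (9.05% of all). CCGGAA was found at Cd9, Ltbp1, Pf4, Rasgrp2 and Srgn (5 windows, and 14.9% of all). A match is only these letters in this window, and binding was not measured here.

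The cell type was checked with marker lists. Beside each list stand the shares of all genes, 7.78% higher and 7.6% lower in CBFb_KD, and 5.66% and 6.57% in Ring1b_KD. Of 13 measured megakaryocyte markers, 7 rose and 0 fell in CBFb_KD, led by Treml1 (1.82), Gp5 (1.68) and Gp9 (2.32), and 0 rose and 2 fell in Ring1b_KD (Vwf -0.75, Zfpm1 -0.37). Their summed linear signal was 23296 to 24608 in CBFb_KD and 10838 to 15816 in Ring1b_KD, against 13006 to 14902 in Control. Of these 13, Gp6, Itgb3, Nfe2 and Vwf lay under the median gene in all groups. Fewer cells that express a gene and less RNA per cell cannot be told apart in such samples.

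Markers of the red cell lineage moved with the members in CBFb_KD, where 5 of 9 rose and 0 fell, among them Alas2 (1.61), Rhag (1.69) and Epb42 (1.10). Their summed signal was 8011 to 8858 in CBFb_KD and 5596 to 6609 in Ring1b_KD, against 5773 to 6787 in Control. Of the 9, 3 lay under the median gene in all groups, Rhag among them. Of 12 mast cell and basophil markers, 1 rose and 3 fell in CBFb_KD (Hdc 1.11, Ms4a2 -1.92) and 2 rose and 1 fell in Ring1b_KD (Fcer1a 1.61, Ms4a2 -1.49), with summed signals of 4985 to 5399 in CBFb_KD and 4906 to 6279 in Ring1b_KD, against 4003 to 5377 in Control. Of 12 neutrophil markers 1 rose (Prtn3, 1.42) and 1 fell in CBFb_KD and 1 fell in Ring1b_KD, and 9 lay under the median gene, with summed signals of 1662 to 1922 in CBFb_KD and 1417 to 1776 in Ring1b_KD, against 1912 to 2130 in Control. The 12 monocyte and macrophage markers had 0 calls in CBFb_KD or Ring1b_KD (0 and 4 at an unadjusted p under 0.05 in limma, where all genes gave 25.2% and 26.9%), and 9 lymphocyte markers had 0 in CBFb_KD and 1 in Ring1b_KD. The part of these other lineages in the members' changes was not tested.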

How the data were processed

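RNA of 9 one-colour arrays was measured. The deposited values are log2 signals of 45101 probe sets, as their range from 3.227 to 15.355 shows. Per the labels' protocols, RNA was primed with oligo-dT and transcribed with biotinylated nucleotides, and what the authors did after scanning (background, summary, normalization) is not given in the sources used here. Array medians ran from 6.514 to 6.651, with Ring1b_KD arrays highest, so all values were quantile normalized here and 64 control probe sets then dropped. By the platform annotation 34945 probe sets have 1 gene symbol, 932 have several and 9160 are not listed. Of the first, 34754 matched the RefSeq gene table of GRCm38.p6 by Entrez ID, which changed 0 symbols. With several such probe sets a gene took the one of highest mean, which left 18193 genes.

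One linear model of group means over all 9 arrays was fitted in limma 3.58.1, run in R 4.3.3, with a mean-variance trend in eBayes (6.805 prior degrees of freedom). Its two-sided tests were corrected across every gene of a comparison by the Benjamini-Hochberg method, with calls at an adjusted p under 0.05. Only the model fit and the calls were run on simulated data, with independent noise. Normalization and the choice of probe sets were not run on them, and the outcome is not given here. The number of arrays limits the precision, and signals near the floor or the top of the scale can compress differences, which was not tested. All 38 members are named, with array values for those called with a log2 fold change of at least 0.5 in size, and up to 4 called genes of each other list per comparison by smallest adjusted p. Members and lists were chosen with earlier results of these data known. Alternatives were the values as deposited, median centring, probe sets averaged per gene, no variance trend, robust variance, the replicate number as a block, a filter on dim genes, only the groups compared, and each array left out. Deviations from group means of same-numbered arrays correlated at 0.203, 0.377 and 0.2 between CBFb_KD and Control. Between the other groups they ran from -0.0677 to 0.153. The main fit held no pairing in any comparison, and the replicate number entered only in the alternative with a block. Promoter windows are RefSeq's.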

Additional observations from a re-analysis of the deposited data

How the results depend on the processing

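Of the members called, 8 of 14 in CBFb_KD (Ppbp, Ltbp1, Pdgfb, Cd36, Lcp2, Btk, Lat and Fermt3), 1 of 8 in Ring1b_KD (Vav1) and 9 of 12 between the knockdowns kept their call in each of the 16 or 17 alternatives in which they were tested. The count that rose in CBFb_KD was 9 to 15 over the fits without 1 array and 12 to 17 over the others, and the count that fell was 0, except 1 (Syk) with probe sets averaged per gene. In Ring1b_KD the count that rose was 1 with median centring and 0 to 5 without 1 array. The count that fell was 6 with median centring, where Lat was added, 2 with averaged probe sets and 2 to 5 without 1 array. Between the knockdowns 10 to 16 members were higher in CBFb_KD, and the count lower was 0 with median centring or averaged probe sets. Cd82 changed sign with averaged probe sets, to 0.38 in CBFb_KD against Control (limma adjusted p = 0.0385) and 0.15 in CBFb_KD against Ring1b_KD (limma adjusted p = 0.417), since its other probe set rose in CBFb_KD.

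Scaling moved the balance of calls. Of all genes called in Ring1b_KD, 46.2% were higher, against 34% with the values as deposited and 12.2% with median centring. Of those called between the knockdowns, 52.1% were higher in CBFb_KD, against 62.3% and 84.1%. Over all genes, median centring gave 352 higher and 2537 lower in Ring1b_KD, against 1029 and 1196 with quantile normalization, and 514 lower between the knockdowns, against 1693. The fits without 1 array gave as few as 943 higher and 809 lower in CBFb_KD, against 1416 and 1382 with all arrays, 471 higher and 673 lower in Ring1b_KD, all without Control array 3, and 962 lower between the knockdowns, without CBFb_KD array 3.

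A replicate block gave 15 members higher in CBFb_KD than in Control, Alox12 being added, and 4 rose and 5 fell in Ring1b_KD, where Fermt3 was added (limma adjusted p = 0.0477). Between the knockdowns it gave 14 higher and 1 lower. The block removed no call of a member. The causes of these changes were not tested, other than that a fit without 1 array has fewer samples.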
